A study of Mus musculus with 9 samples.

Results

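The genes described here are 10 transcription factor genes of vessel wall cells, taken by name out of the 46517 gene rows of the count table: Erg, Fli1, Ets1, Sox7, Sox17, Sox18, Epas1, Foxf2, Foxc1 and Ebf1. They are described across 9 cell type labels in single cells dissociated from vascular fragments of adult mouse brain. All 10 had reads. They were chosen by name and not by a threshold on any value, though with earlier results of these data known. The mice are labelled only as adult, with no treatment, strain, genotype or sex named, and the cells were sorted into plates by a gate the labels do not describe. RNA was copied with Smart-seq2, a plate method that covers transcripts along their length but tags no molecules, so PCR copies of a read cannot be told from separate molecules.

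The label aEC held 116 cells, vEC 45, CP-EC 17 and capilEC 787. Against these endothelial labels stood FB with 9 cells, PC with 54, aSMC with 41 and vSMC with 29, and MG held 137. The labels are not spelled out in the sources used here, and the markers went with them: the 15 pan endothelial marker genes summed to 18490 to 26638 CPM (counts per 1000000 reads) in the 4 endothelial labels, the 12 pan mural markers to 10339 to 17168 CPM in PC, aSMC and vSMC, the 8 fibroblast markers to 11564 CPM in FB, and the 11 microglia markers to 36836 CPM in MG. Of the fibroblast list, Dpt was at 0 in FB, which also held 1576 CPM of the 8 astrocyte markers, 5 of them at 0. The 6 choroid plexus endothelial markers summed to 6134 CPM in CP-EC and 36.2 CPM in capilEC. Cells held 100021 to 854836 reads each and came from 4 plates. Each label is 1 sample and no animals were named, so no test between labels was possible, and differences are set against the range over plates that held at least 5 cells of the label. Intervals are exact 95% Poisson intervals for CPM and exact 95% binomial intervals for shares of cells; both cover counting error only. In pooled reads, fewer cells with a transcript and less transcript per cell cannot be told apart, so shares of cells are given beside the levels.

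Erg, Fli1 and Ets1 encode ETS factors, a family that binds GGAA cores. Erg and Fli1 are the close pair that maintain endothelial identity and drive genes such as Cdh5, and in blood lineages Fli1 also acts in macrophages and platelets. Sox7, Sox17 and Sox18 encode the SOXF group of HMG-box factors, which act in endothelial and arterial specification and in lymphatic development. Epas1 encodes HIF-2 alpha, the oxygen-regulated subunit of a hypoxia-inducible factor, and is known for its high level in endothelium and pericytes. Foxf2 and Foxc1 encode forkhead factors, Foxf2 known for its part in brain pericytes and the blood-brain barrier, Foxc1 for meningeal and mural development. Ebf1 encodes an early B-cell factor, first known from lymphocytes and also found in mural and stromal cells.

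In the genome (build GRCm38), several members are neighbours. Fli1 lies at chr9:32422204-32542861 on the minus strand and Ets1 at chr9:32636221-32757820 on the plus strand, with 93.4 kb and no protein-coding gene between them. Foxf2 at chr13:31625816-31631403 and the single-exon gene Foxc1 at chr13:31806633-31812476, both on the plus strand, are 175 kb apart, and Foxq1, another forkhead gene, lies 64.8 kb before Foxf2. Erg spans chr16:95359169-95586593 on the minus strand, and Ebf1 spans chr11:44617317-45008091 on the plus strand. Sox7 is at chr14:63943673-63950732 (plus), Sox17 at chr1:4490931-4497354 (minus), Sox18 at chr2:181669836-181671640 (minus) and Epas1 at chr17:86753700-86833410 (plus). Sox17 shares 804 exon bases with Gm37587 and Foxf2 shares 98 with the miRNA gene Gm27516, each on the opposite strand. The sources used here state no strand setting for the counting, so a share of the reads of these 2 members is uncertain; Gm37587 held 1749 reads beside 92861 of Sox17, and Gm27516 held 8379 beside 63783 of Foxf2.

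The promoter table held windows for 4 members (RefSeq, GRCm38.p6), and the 250 bases before a start site of each are shown. In the pooled levels below, Erg was higher in the endothelial mean and Ebf1 in the mural mean. Neither met the size rule given there, and the sign for Ebf1 was split over plates. The neighbours Foxf2 and Foxc1 were highest in different labels. Capitals mark the ETS core GGAA on either strand, and in Erg also a stretch that holds both SOX motifs searched on either strand, ACAATG and, overlapping it, AACAAT. Erg has 3 starts in the table and Ebf1 has 2, and the start shown is the one with the SOX letters for Erg and with the most ETS cores for Ebf1. Of the other Erg windows, the one at the 5′ end of the gene held none of the motifs searched and the next held 4 ETS cores and no SOX motif, and the other Ebf1 window held 2 ETS cores.
Erg, chr16:95459349-95459598, minus strand: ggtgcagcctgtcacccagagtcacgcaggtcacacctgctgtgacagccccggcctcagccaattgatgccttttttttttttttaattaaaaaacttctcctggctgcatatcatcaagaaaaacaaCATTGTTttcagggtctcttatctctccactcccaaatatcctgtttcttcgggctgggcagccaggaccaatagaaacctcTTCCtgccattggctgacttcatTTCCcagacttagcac
Foxf2, chr13:31625566-31625815, plus strand: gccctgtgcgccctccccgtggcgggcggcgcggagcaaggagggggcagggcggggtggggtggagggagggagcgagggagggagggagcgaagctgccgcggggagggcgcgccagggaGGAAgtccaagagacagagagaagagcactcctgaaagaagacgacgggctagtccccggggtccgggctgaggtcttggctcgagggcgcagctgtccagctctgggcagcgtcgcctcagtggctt
Foxc1, chr13:31806396-31806645, plus strand: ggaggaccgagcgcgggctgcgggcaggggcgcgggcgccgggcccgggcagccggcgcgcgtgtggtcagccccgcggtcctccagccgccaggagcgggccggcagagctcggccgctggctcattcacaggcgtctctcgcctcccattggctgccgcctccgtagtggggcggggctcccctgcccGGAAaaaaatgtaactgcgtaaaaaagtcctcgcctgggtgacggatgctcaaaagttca
Ebf1, chr11:44619978-44620227, plus strand: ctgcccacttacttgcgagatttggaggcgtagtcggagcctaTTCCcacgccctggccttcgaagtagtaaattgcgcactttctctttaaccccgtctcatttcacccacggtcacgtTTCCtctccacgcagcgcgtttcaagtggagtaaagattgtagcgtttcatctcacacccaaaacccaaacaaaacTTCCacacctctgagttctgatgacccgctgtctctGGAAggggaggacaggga
The Erg window held ETS cores beginning 39 and 16 bases before the start and the SOX letters beginning 121 bases before it. The Foxf2 and Foxc1 windows each held 1 ETS core, at 128 and 60 bases, and the Ebf1 window held 4. An ETS core is common: 93.4% of 32851 promoter windows of this length held one on either strand. ACAATG was held by 10.7% of windows and AACAAT by 9.42%. These shares are for single windows, while the Erg window was picked out of 3 for its SOX letters, so they give no measure of its match. Hypoxia element letters were searched as well. GCGTG, held by 28.2% of windows, was in the Erg, Foxc1 and Ebf1 windows shown, and ACGTG, held by 16.6%, in the Ebf1 window. The forkhead letters TGTTTAC, held by 3.17% of windows, and the EBF palindrome, held by 0.779%, were in none of the 4 windows shown. GC content was 71.6% in the Foxf2 window and 70.8% in the Foxc1 window, against a median of 52.4% over all windows. Such matches describe letters, not binding.

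Per kilobase of exon, which allows levels of different genes to be set side by side, Sox18 and Epas1 stood above the other members in aEC, vEC, CP-EC and capilEC. Sox18 reached 728 CPM per kb in aEC, 490.2 in vEC, 516 in CP-EC and 621 in capilEC. Epas1 reached 332, 135, 187 and 246 CPM per kb in the same order. The other members lay between 6.18 and 157 CPM per kb in these labels, with Foxc1 at 6.18 to 9.43. In PC, aSMC and vSMC, Epas1 led at 166, 215 and 259 CPM per kb. Lengths are the union of annotated exons, so members with long alternative exons, such as Ebf1 (9.76 kb) and Ets1 (8.48 kb), are set low by this scale.

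**Figure D1:**
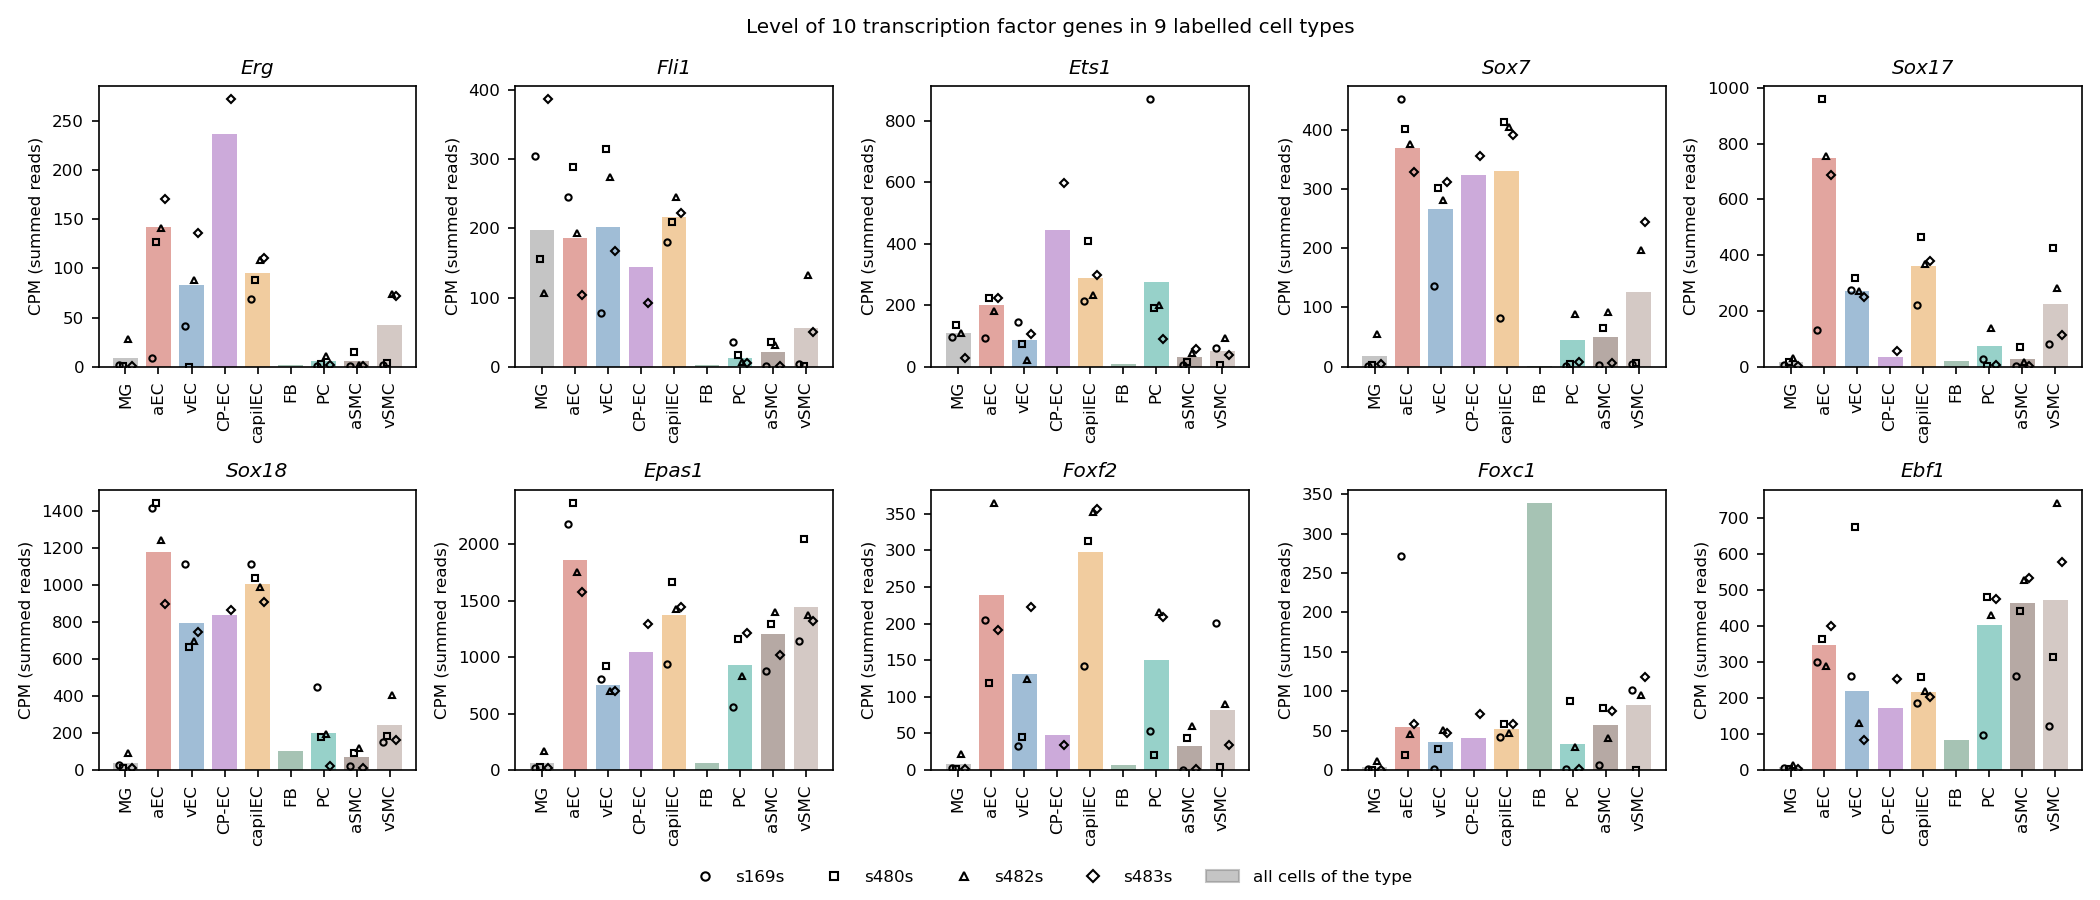
Level of each gene in CPM of summed reads (linear axis from 0) in the 9 labels; bars are all cells of a label and open symbols are plates with at least 5 cells of it (none for FB, 1 for CP-EC). Sox18 separated vEC from vSMC on every plate, Epas1 was high in every endothelial and mural label, and Foxc1 stood highest in FB.

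Between endothelial and mural cells, the SOXF genes and Fli1 were several-fold higher on the endothelial side, while Epas1 and Ebf1 were at like or higher levels on the mural side. A gene met the size rule with at least 50 CPM and a read in at least 50% of cells in the higher group and a difference of at least 2 units of log2(CPM + 5), which is 4-fold. Taking the mean of aEC, vEC and capilEC over the mean of PC, aSMC and vSMC, 4 of the 10 members met it in the endothelial direction, where 9.25% of the 2455 genes tested did, and 0 met it in the mural direction, where 5.82% did. Of the 10, 8 could be tested; Erg and Foxc1 had reads in too few cells. The members' median difference was 1.66, beside 0.03 over all 12714 measured genes, and Sox7 (2.05) and Sox17 (2.04) lay just inside the rule.

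Fli1 had 187, 202 and 216 CPM in aEC, vEC and capilEC, against 12.99, 21.6 and 55.3 CPM in PC, aSMC and vSMC, a difference of 2.56 log2 units (1.97 to 3.57 over 4 plates). Plate values ran from 78.2 to 315 CPM in these 3 endothelial labels and from 1.08 to 132 CPM in the mural ones; the overlap came from vSMC on plate s482s. Erg, its close relative, had 142, 83.3 and 95.7 CPM in aEC, vEC and capilEC, against 5.98, 5.85 and 42.7 CPM in PC, aSMC and vSMC. That difference was 2.27 log2 units and was positive on 4 of 4 plates (1.79 to 2.93), but Erg was read in only 43.6% of endothelial cells and so could not meet the rule. In vEC of plate s480s, 6 cells held no Erg read, which allows up to 1.43 CPM.

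Ets1, the third ETS member, did not divide the vessel wall in this way. It had 201, 85.4 and 289 CPM in aEC, vEC and capilEC, against 275, 32.7 and 52.4 CPM in PC, aSMC and vSMC, so PC stood beside the endothelial labels and apart from smooth muscle. The endothelial over mural difference was 0.65 log2 units, and its sign turned on plate s169s (-1.03).

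Sox18 had 1179, 794 and 1005 CPM in aEC, vEC and capilEC, against 199, 70.5 and 241 CPM in PC, aSMC and vSMC, a difference of 2.51 (2.01 to 3.60 over plates). Its lowest endothelial plate value, 663 CPM, was above its highest mural one, 446 CPM, so these groups did not overlap. Sox7 had 369, 266 and 330.4 CPM in the same endothelial labels, against 44.9, 50.1 and 126 CPM in the mural ones. Its difference was 2.05 and ranged from 1.46 to 5.02 over plates. Plate s169s stood apart for Sox7 in capilEC, at 81.6 CPM against 391 to 413 CPM on the other 3 plates. Sox17 had 749.7, 271 and 360.5 CPM in aEC, vEC and capilEC, against 72.6, 28.3 and 224 CPM in PC, aSMC and vSMC, a difference of 2.04 (1.65 to 3.27 over plates).

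Foxf2 was higher on the endothelial side without meeting the rule, at 239, 131 and 298 CPM in aEC, vEC and capilEC, against 151, 32.6 and 82.1 CPM in PC, aSMC and vSMC (1.28 log2 units, positive on 4 of 4 plates). Epas1 had 1856, 753 and 1376 CPM in aEC, vEC and capilEC, against 926, 1202 and 1446 CPM in PC, aSMC and vSMC, a difference of 0.16 log2 units. Its vEC level was the lowest of these 6. Foxc1 was low in all of them, at 55.1, 36.1 and 51.8 CPM against 33.5, 56.8 and 82.8 CPM. Ebf1 had 346, 220.3 and 216 CPM in aEC, vEC and capilEC, against 401, 463 and 472 CPM in PC, aSMC and vSMC. Its difference of -0.76 held in sign on plates s482s and s483s (-1.39 and -1.19) but not on s169s and s480s (0.62 and 0.07).

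Other genes of these families, from lists also chosen with earlier results of these data known, gave the following counts. Of 19 genes taken as ETS and SOXF endothelial targets, 11 of which are also among the 15 pan endothelial markers, 19 were measured and 11 met the rule on the endothelial side, among them Tie1 (465 CPM endothelial, 49.2 CPM mural) and Robo4 (485 and 31.6 CPM). The median difference of that list was 2.54. Of 15 measured ETS factors, 5 had the level and share the rule asks for, and of those Fli1 alone met it. Of 22 measured forkhead factors 5 could meet it, and Foxq1 was higher on the endothelial side (267.5 and 41.6 CPM) and Foxs1 on the mural side (3.29 CPM endothelial, 444 CPM mural). Of 23 measured genes in a list of other endothelial transcription factors 13 could meet it, and 6 were higher on the endothelial side, among them Hhex (172 and 19.1 CPM), Klf2 (556 and 109 CPM) and Gata2 (257 and 46.3 CPM). Nr2f2, which encodes a venous and mural nuclear receptor, was lower there (51.7 CPM endothelial, 266 CPM mural). In the list of mural and fibroblast factors Heyl, a Notch target, was lower in endothelial cells (1.36 CPM endothelial, 661 CPM mural). Ebf1 was the only one of 4 EBF genes measured, that is with over 5 CPM in either group.

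**Figure D2:**
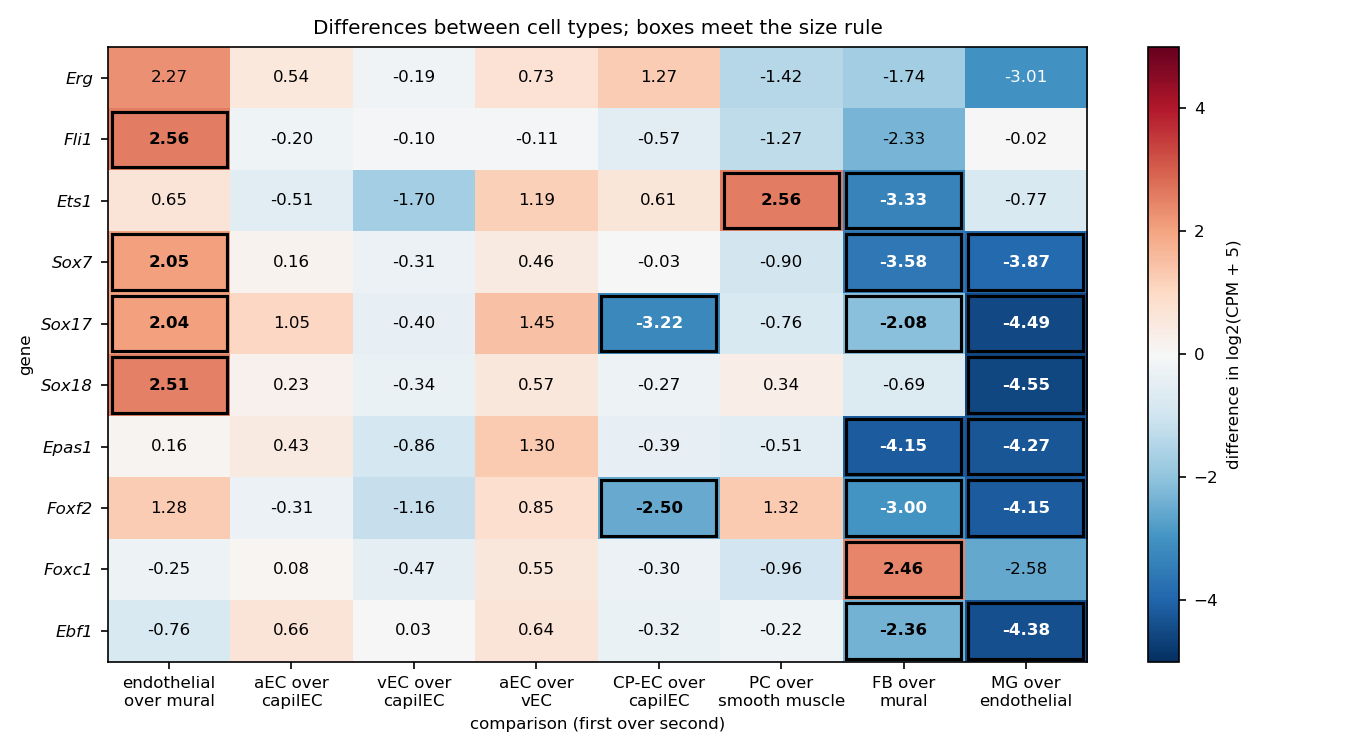
Difference in log2(CPM + 5), first over second, for the 10 genes (rows) in 8 comparisons (columns); boxed values met the size rule. The boxes of Fli1, Sox7, Sox17 and Sox18 fall in the endothelial over mural column, 0 boxes fall in the comparisons among aEC, vEC and capilEC, and Sox17 and Foxf2 are boxed for CP-EC over capilEC.

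Mural, fibroblast and microglia labels also held endothelial reads. The 15 pan endothelial markers summed to 6415, 2321 and 5556 CPM in PC, aSMC and vSMC, with 0 of the 15 at 0 in any of them. To show how far the members went with these reads, cells were divided at 2641 CPM of this list, 10% of the median endothelial cell. At or under it were 22 of 54 PC, 37 of 41 aSMC and 17 of 29 vSMC. Erg and the SOXF genes went with the endothelial reads. In PC, Sox17 had 5.19 CPM in cells at or under the limit and 117 CPM in cells over it, and Sox7 had 3.54 and 72.1 CPM. Sox18 had 19.8 and 316 CPM, and Erg 1.42 and 8.98 CPM. Sox17 in vSMC showed the same division, with 4.87 CPM at or under the limit and 409 CPM over it. Sox18 in vSMC was divided less, with 74.4 CPM at or under the limit and 381 CPM over it. The lower value was 7.40% of its capilEC level, where the marker list was at 4.9% of its own.

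Fli1 went with the endothelial reads in smooth muscle, at 2.72 CPM at or under the limit and 168.6 CPM over it in aSMC and at 4.17 and 98.3 CPM in vSMC. In PC it was low on either side of the limit (13.2 CPM at or under it, 12.8 CPM over it). Epas1 and Ebf1 were high where endothelial markers were low. Epas1 had 809.7, 1167 and 1223 CPM in PC, aSMC and vSMC cells at or under the limit, and Ebf1 had 429, 459 and 427 CPM. Ets1 in PC had 319 CPM at or under the limit, which was 110.3% of its capilEC level in cells where the marker list was at 5.18% of its own. Foxf2 in PC had 229 CPM, 76.9% of its capilEC level. In aSMC and vSMC cells at or under the limit, Foxf2 had 22.3 and 9.39 CPM and Ets1 had 36.8 and 7.30 CPM. Foxc1 had 47.9, 64.1 and 168 CPM in PC, aSMC and vSMC. With cells over the limit left out, an alternative added after the data were seen, the endothelial over mural count stayed at 4 and the differences of Sox7, Sox17 and Sox18 reached 5.17, 5.64 and 4.63 log2 units. Over all genes, 353 then met the rule as higher and 144 as lower, against 227 and 143 with all cells.

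**Figure D3:**
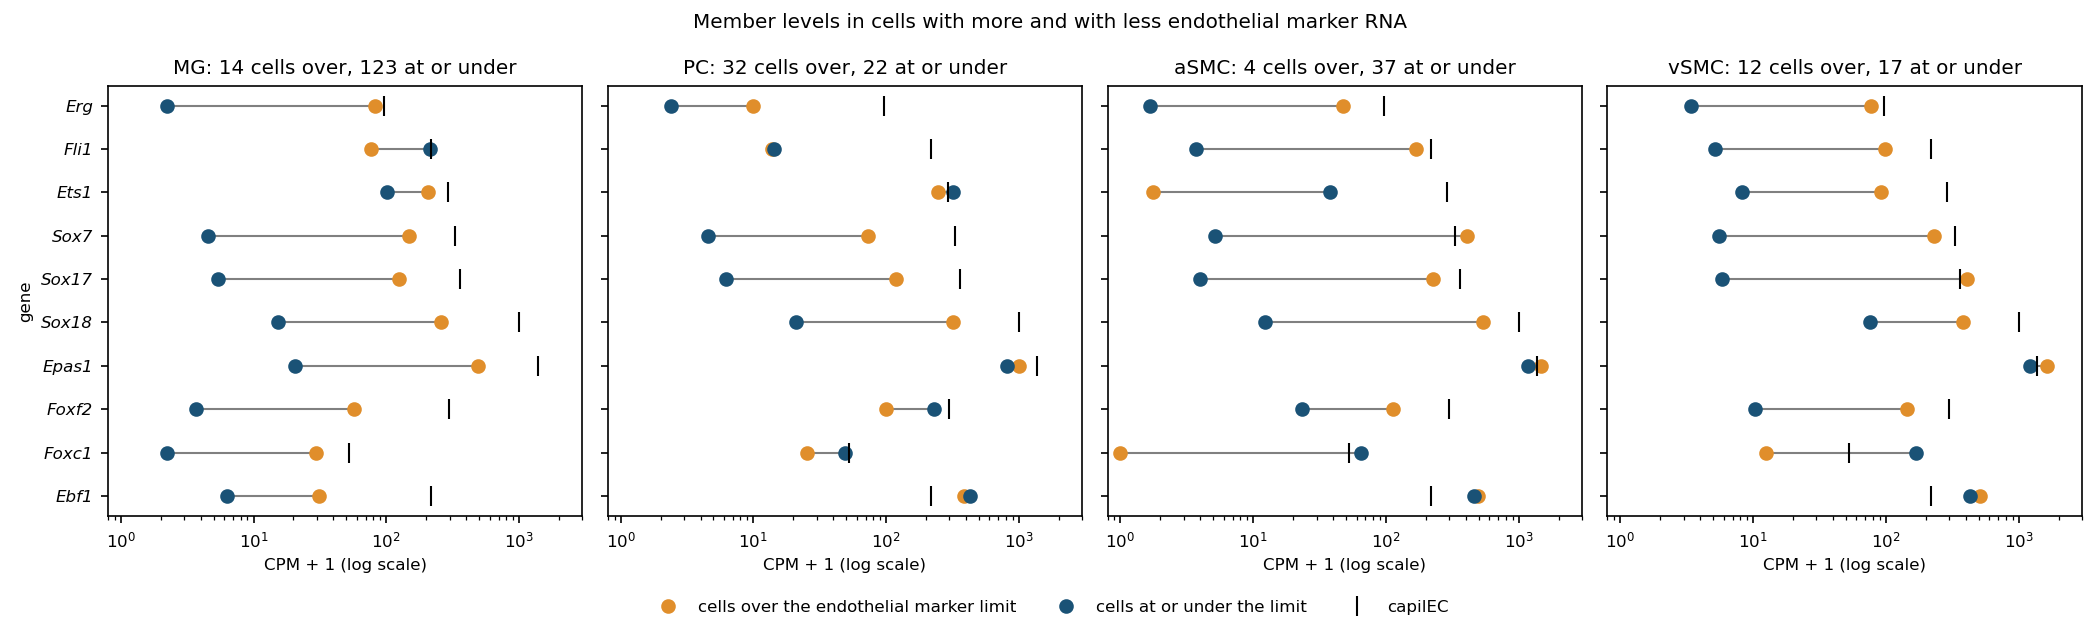
CPM + 1 on a log axis for each gene in MG, PC, aSMC and vSMC, for cells over (orange) and at or under (blue) the limit of 2641 CPM of endothelial markers; black ticks are the capilEC level. In PC, Epas1 lies at 1003 CPM over the limit and 809.7 CPM at or under it, while Sox17 in PC lies at 117 CPM over the limit and 5.19 CPM at or under it.

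Among aEC, vEC and capilEC, differences were smaller. 0 of 10 members met the size rule for aEC over capilEC, vEC over capilEC or aEC over vEC in either direction. Over all genes tested, 0.771% and 0.499% met it as higher and lower in aEC over capilEC, 1.22% and 0.874% in vEC over capilEC, and 2.06% and 1.82% in aEC over vEC. Within that limit, pooled CPM was highest in aEC for every member but Fli1, Ets1 and Foxf2, which were highest in capilEC. It was lowest in vEC for every member but Fli1 and Ebf1.

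Sox17, a factor of arterial specification, had 749.7 CPM in aEC (740.1 to 759 counting interval), 271 CPM in vEC and 360.5 CPM in capilEC. On plates s480s, s482s and s483s aEC had 959, 755 and 688 CPM, against 464, 369.8 and 378 CPM in capilEC. On plate s169s, with 7 aEC cells, the order turned, at 131 CPM in aEC and 220.3 CPM in capilEC. The pooled differences were 1.05 log2 units for aEC over capilEC and 1.45 for aEC over vEC, each of the same sign on 3 of 4 plates. After each cell was thinned to 100000 reads, 67.2% of aEC cells held at least 10 Sox17 reads, against 46.7% of vEC and 42.6% of capilEC cells; without thinning, 66.4% (57.0 to 74.9%), 46.7% (31.7 to 62.1%) and 42.4% (39.0 to 46.0%) were at 100 CPM or more. In MG, taken as background since that lineage should lack the gene, the thinned share was 2.92%; median depths before thinning were 232674 reads in MG and 235862, 261300 and 192941 in aEC, vEC and capilEC. Sox18 and Sox7 differed less between aEC and vEC, by 0.57 and 0.46 log2 units.

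Epas1 had 1856 CPM in aEC, against 753 CPM in vEC. The difference of 1.30 log2 units lay between 1.16 and 1.43 on the 4 plates, the narrowest plate range among the members for this pair, and the plate values did not overlap (1575 to 2364 CPM in aEC, 697 to 919 CPM in vEC). Hif1a, which encodes the related subunit HIF-1 alpha, ran the other way per length: 35.7 CPM per kb in aEC, 87.5 in vEC and 45.6 in capilEC, beside 332, 135 and 246 CPM per kb of Epas1. Of the hypoxia response list, 1 of 12 measured genes met the rule for aEC over vEC, Edn1 (622 CPM in aEC, 114 CPM in vEC).

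Ets1 had 85.4 CPM in vEC, against 289 CPM in capilEC, a difference of -1.70 log2 units that was negative on 4 of 4 plates (-3.15 to -0.54). Without plate s169s it met the rule, with 1 of 10 members then called. Over all genes, 42 were then higher and 31 lower in vEC, against 35 and 25 with all plates. Foxf2 had 131 CPM in vEC, against 298 CPM in capilEC (-1.16, negative on 4 of 4 plates). Epas1 was also lower in vEC (-0.86, 4 of 4 plates). The pan endothelial list was lower in vEC as well, at 18490 CPM, against 26638 CPM in capilEC, with a median of -0.45, and its part in these values was not tested. Ebf1 was nearly level in vEC and capilEC (0.03), with plates from -1.23 to 1.37. For aEC over capilEC, Ebf1 was positive on 4 of 4 plates (0.38 to 0.96), and 60.3% of aEC cells held at least 10 reads in 100000, against 29.9% of capilEC cells and 0.730% of MG cells.

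In CP-EC, which carry the fenestrated endothelial markers Plvap and Gpihbp1, Sox17 and Foxf2 were low. Sox7, Sox18, Epas1, Foxc1 and Ebf1 lay at 76.0 to 97.9% of their pooled capilEC levels, and Fli1 at 66.5%. Some of these levels rest on few cells. For Foxc1, 52.9% of the CP-EC reads came from 1 cell, and plates s169s, s480s and s482s held 0 reads. Ebf1 had 254 CPM in CP-EC on plate s483s and 14.7, 17.3 and 107 CPM on s169s, s480s and s482s. For Fli1, 50.1% of the CP-EC reads came from 1 cell. Sox17 and Foxf2 were the 2 of 10 members that met the rule as lower, where 8.29% of 2280 genes did. As higher, 0 met it, where 2.94% did. Sox17 had 34.1 CPM (28.1 to 41.1) in CP-EC, against 360.5 CPM (358 to 363) in capilEC, a difference of -3.22 log2 units. Of its CP-EC reads, 86.7% came from 1 cell, and 1 of 17 CP-EC cells was at 100 CPM or more (5.88%, 0.149 to 28.7%), against 334 of 787 capilEC cells (42.4%). Foxf2 had 48.3 CPM (41.1 to 56.4) in CP-EC, against 298 CPM in capilEC, a difference of -2.50, with 2 of 17 CP-EC cells and 294 of 787 capilEC cells at 100 CPM or more.

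Only plate s483s held 5 or more CP-EC cells, 10 in all; there the differences were -2.66 for Sox17 and -3.21 for Foxf2. Without that plate Sox17 was still called (-5.17) and Foxf2 was not (-1.94), in a setting where the median of all genes was itself at -1.17 and 372 genes were lower. Sox18 had 836 CPM and Sox7 323 CPM in CP-EC, against 1005 and 330.4 CPM in capilEC. For Sox7, 34.5% of the CP-EC reads came from 1 cell, and 4 of 17 CP-EC cells were at 100 CPM or more. Erg was higher at 237 CPM against 95.7 CPM (1.27 log2 units), and Ets1 at 445 CPM against 289 CPM, a sign that turned without plate s483s (-0.27). For Erg, 32.5% of the CP-EC reads came from 1 cell, and 4 of 17 CP-EC cells were at 100 CPM or more. The median difference of all genes was -0.38 in this comparison, so small negative values such as that of Sox18 (-0.27) lie near it. The 11 microglia markers summed to 856 CPM in CP-EC and 294 CPM in capilEC, and the 5 choroid plexus epithelial markers to 201 and 11.02 CPM. With cells holding markers of another class left out, 14 CP-EC cells stayed and both genes were still called (-5.21 for Sox17, -2.22 for Foxf2).

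Of 22 measured genes in the list of other endothelial transcription factors, 12 had the level and share of cells the rule asks for. Of these, 2 were higher and 4 were lower in CP-EC, among them Foxq1, Lef1 and Lmo2. Foxq1 had 3.02 CPM in CP-EC and 281 CPM in capilEC, and Lef1, a nuclear partner of Wnt signalling, had 6.04 and 454 CPM. Lmo2, a cofactor of GATA and bHLH factors, had 34.4 and 316 CPM. Higher in CP-EC were Elk3, an ETS factor (835 and 168 CPM), and Meox1 (470.5 and 51.8 CPM). Of 11 measured genes in the hypoxia response list 4 could meet the rule, and 2 were lower and 0 higher. Slc2a1, the glucose transporter of the barrier, had 346 and 3573 CPM, and Ndrg1 had 151 and 967 CPM. The median difference of the list was 0.27, beside -0.38 over all genes, so the list as a whole was not lower.

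**Figure D4:**
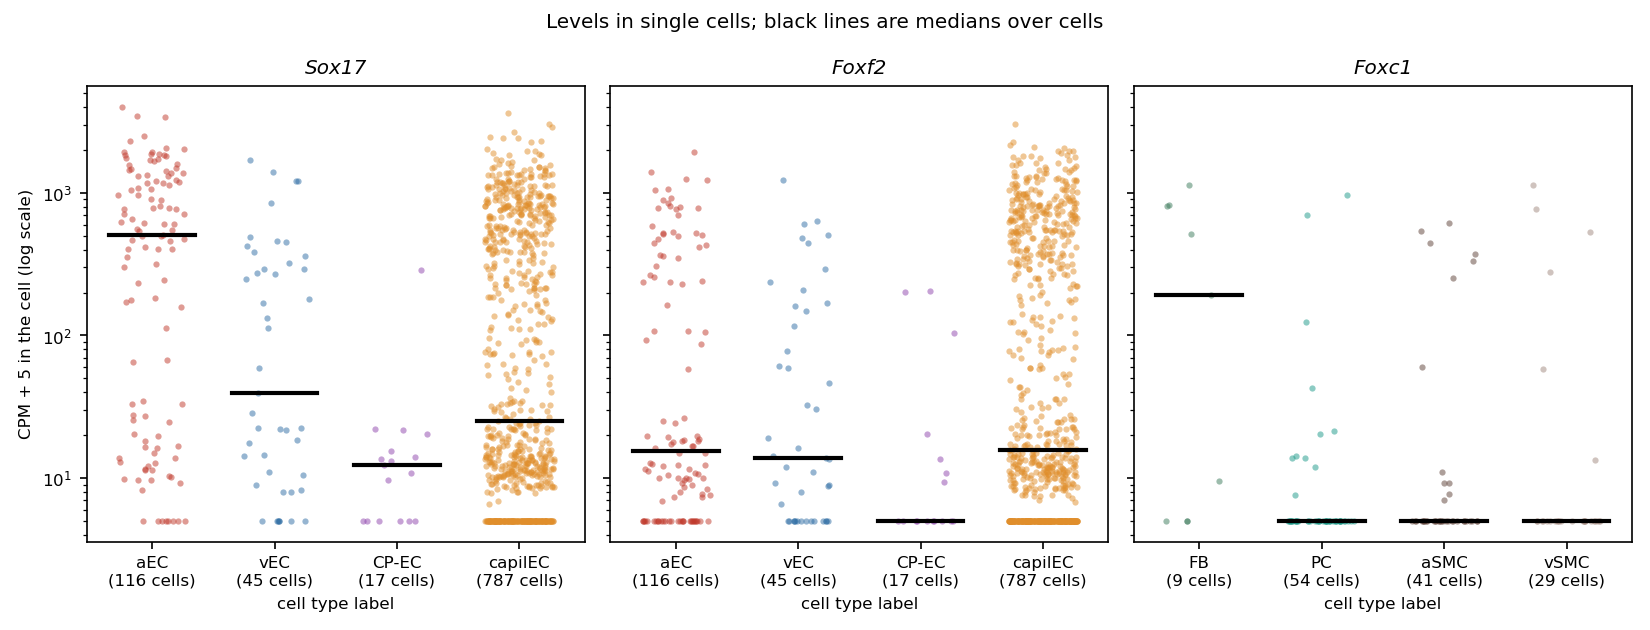
CPM + 5 in every cell on a log axis for Sox17 and Foxf2 in aEC, vEC, CP-EC and capilEC and for Foxc1 in FB, PC, aSMC and vSMC; black lines are medians over cells. Endothelial cells form an upper band at 100 CPM or more and a lower band of 0 to a few reads, CP-EC have 1 Sox17 cell in the upper band, and 5 of 9 FB cells lie in the upper Foxc1 band.

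Cells of a label lay in a high and a low band, which pooled CPM does not show. In capilEC, 334 of 787 cells were at 100 CPM or more of Sox17, 258 were above 0 and under 50 CPM, 25 were between, and 170 were at 0. Erg was sparser, with 124 of 787 capilEC cells at 100 CPM or more (15.8%, 13.3 to 18.5%) and a median of 420.2 CPM within them. Sox18 was the densest SOXF gene, at 100 CPM or more in 78.3% of capilEC cells, against 42.4% for Sox17 and 33.4% for Sox7. In thinned cells, Sox7, Sox17 and Sox18 were all read in 42.4% of capilEC cells, where the product of their shares was 40.2%, and none was read in 7 of 787. Erg and Fli1 were both read in 24.4% of capilEC cells (product 22.1%) and neither in 26.0%. A low band of a few reads was also present in MG, where Sox18 was read in 71.5% of thinned cells but reached 10 reads in 5.11%.

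Within the mural wall, Ets1 set PC apart from smooth muscle. It met the rule for PC over the mean of aSMC and vSMC, 1 of 10 members higher where 2.11% of 2279 genes were, and 0 lower where 2.50% were. Ets1 had 275 CPM in PC, against 32.7 CPM in aSMC and 52.4 CPM in vSMC (2.56 log2 units). Of thinned cells, 33.3% of PC held at least 10 reads, against 7.32% of aSMC and 6.90% of vSMC. The sign was the same on 4 of 4 plates but the size was not, from 0.85 on s483s to 4.53 on s169s. Plate s169s held 871 CPM of Ets1 in PC, where the other plates held 90.3 to 201 CPM, and without it the difference was 1.91 and Ets1 was not called.

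Foxf2 had 151 CPM in PC, against 57.4 CPM in smooth muscle (1.32 log2 units), with the sign split over plates. It was positive on s482s and s483s (1.48 and 3.21) and negative on s169s and s480s (-0.86 and -0.16). When cells over the endothelial marker limit were left out, Foxf2 met the rule as well, so the count was 2. Over all genes, 82 were then higher and 148 lower, against 48 and 57 with all cells. That setting kept 22 PC, 37 aSMC and 17 vSMC cells. Ebf1 and Epas1 differed little, by -0.22 and -0.51. Without plate s482s, Sox7 and Sox17 met the rule as lower in PC, where 117 genes did, against 57 with all plates. Over all plates, vSMC cells at or under the endothelial marker limit held 4.52 and 4.87 CPM of these genes, against 229 and 409 CPM over it. PC cells at or under the limit were near them, at 3.54 and 5.19 CPM. The part of endothelial reads in these 2 calls was not tested. Beside Ets1, Elk3 was the other ETS factor called, as lower in PC, at 9.53 CPM against a smooth muscle mean of 72.1 CPM. That mean came mostly from vSMC, at 132.5 CPM, while aSMC were at 11.7 CPM, near PC. Elk3 was at 138 to 835 CPM in the endothelial labels, and the part of endothelial reads in its call was not tested.

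Fibroblasts carried Foxc1 and little of the rest. Foxc1 had 339 CPM (317 to 362) in FB, against 33.5, 56.8 and 82.8 CPM in PC, aSMC and vSMC, 2.46 log2 units over their mean. It was at 100 CPM or more in 5 of 9 FB cells (55.6%, 21.2 to 86.3%), at 188, 510.3, 808, 820 and 1134 CPM, against 3 of 54 PC, 6 of 41 aSMC and 4 of 29 vSMC cells. Foxc1 was the only member higher in FB, where 7.77% of 2717 genes were, and 6 of 10 members were lower (Ets1, Sox7, Sox17, Epas1, Foxf2 and Ebf1), where 12.7% were. No plate held 5 FB cells, and 4 of the 9 were from s169s; without that plate the Foxc1 difference was 0.99, and with cells over the endothelial marker limit left out it was 1.93, called in neither case. Sox7, Sox17 and Foxf2 were likewise not called as lower with those cells left out (-0.44, -0.68 and -2.95), Foxf2 because it then missed the level or share of cells the rule asks for. Over all 16 alternatives Sox17 was called in 7 and Sox7 in 10.

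Epas1 had 62.2 CPM in FB, against 926 to 1446 CPM in the mural labels (-4.15), and Ebf1 had 82.9 CPM, against 401 to 472 CPM (-2.36). For Ebf1, 94.8% of the FB reads came from 1 cell, at 919 CPM, which was also the 1 FB cell over the endothelial marker limit. In the other 8 cells Ebf1 was at 4.71 CPM, Sox18 at 11.98 CPM and Foxc1 at 370.4 CPM. Foxf2, the chromosomal neighbour of Foxc1, had 6.65 CPM in FB, against 88.5 CPM for the mural mean (-3.00). Erg and Fli1 each had 1.96 CPM in FB and Sox7 had 1.56 CPM. Of listed factors outside the members, Sox9 (306 CPM in FB, 4.35 CPM mural) and Tbx18 (373 and 86.3 CPM) were higher in FB. Others were lower. In the list of other mural and fibroblast factors 5 could meet the rule, and 1 was higher and 2 were lower. In the list of other endothelial factors 6 could meet it, and 0 were higher and 2 lower.

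Microglia had Fli1 at the endothelial level and Ets1 somewhat below it, and were low in the other members. For MG over the mean of aEC, vEC and capilEC, 6 of 10 members met the rule as lower (Sox7, Sox17, Sox18, Epas1, Foxf2 and Ebf1), where 18.4% of 2541 genes did, and 0 as higher, where 10.8% did. Fli1 had 198 CPM (194 to 203) in MG, against 201 CPM in the endothelial mean, a difference of -0.02 log2 units, with plates from -1.11 to 1.21. Ets1 had 110.2 CPM in MG, against 192 CPM in the endothelial mean (-0.77, negative on 4 of 4 plates). Erg, by contrast with Fli1, had 8.86 CPM in MG, against 107 CPM (-3.01).

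The endothelial markers summed to 1684 CPM in MG, with 3433 CPM on plate s482s and 958 to 1015 CPM on the others. In the 123 of 137 MG cells at or under the endothelial limit, Fli1 had 211 CPM and Ets1 100.1 CPM, 97.8% and 34.6% of their capilEC levels, where the marker list was at 3.15%. In the same cells the other 8 members were at 0.911 to 2.48% of capilEC. Sox18, for example, had 14.3 CPM in these cells and 257 CPM in the 14 cells over the limit. Among ETS factors Spi1, the master factor of myeloid cells, was higher in MG (851 and 1.59 CPM), and Mef2c was higher as well (478 and 97.4 CPM). In the list of other endothelial transcription factors 13 could meet the rule, and 1 was higher and 6 were lower in MG.

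Over the 9 labels, the genes most like each member were ranked by Pearson's r of log2(CPM + 5) among 3741 genes. With 9 points that share libraries within each label, r is a description only. Cracr2b, Pecam1 and St6galnac3 were nearest to Erg (0.98 to 0.96), and Mpzl1, Adgrf5 and Gpr4 to Sox18 (all 0.99). Fxyd5, Ptprr and the endothelial factor Gata2 were nearest to Sox7 (0.99 to 0.97). Slc46a3, Arpc1b and Adgrg1 were nearest to Fli1 (0.96), which sets it with genes read in MG as well, and Arap3, Itpkb and Rac1 to Ets1 (0.97 to 0.94). Sgms1, Sec62 and Gpcpd1 were nearest to Sox17 (0.97 to 0.96), Pcdh1, Capn2 and Nes to Epas1 (0.97), and Dock9, Spock2 and Ccdc141 to Foxf2 (0.95 to 0.94). Plin3, Ube2l6 and Zbtb20 were nearest to Foxc1 (0.96 to 0.92) and Fermt2, Itga1 and Cyb5r3 to Ebf1 (0.96 to 0.95). Between members, r was highest for Erg with Sox7 (0.92) and lowest for Fli1 with Foxc1 (-0.63), while the neighbours Foxf2 and Foxc1 were at -0.05.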

How the data were processed

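The submitters' processing notes list Subread 1.4.6-p5, featureCounts and SAMtools 1.16.1 and the builds GRCm39 and GRCm38, with no role for either build. The authors deposited unnormalized Smart-seq2 counts, 1 column per cell, and the label each cell carries; the labelling method is unknown here, and a member used for it would not be independent of its label. All 1235 cells were kept, no doublet caller was run, and 0 count columns were left out. Plates were read from cell names.

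Counts were summed per label, scaled to CPM of the summed reads, and compared on log2(CPM + 5). Joined groups used the mean CPM of their labels. With 1 sample per label no test was made; differences were described by the size rule, plates of at least 5 cells and exact intervals. Shares were taken on all reads for the rule and after thinning to 100000 reads for comparison; the 100 CPM band and the 2641 CPM limit (10% of the endothelial median) were set with the data seen. The members, the 19 gene lists (280 entries, 0 absent, 1 under an older symbol) and the rule for like genes were chosen with earlier results of these data known. The size rule was also run on simulated cells drawn from capilEC levels and spread, without plate differences or endothelial reads in other labels. The outcome is not given here, and such cells cannot show how the rule behaves where those features are present. Gene models were GENCODE M21 (GRCm38), which may differ from the annotation counted; promoters were RefSeq GRCm38.p6, where 4 of 10 members had an entry (none for Fli1, Ets1, Sox7, Sox17, Sox18 and Epas1). Tools were Python 3.11.15, numpy 2.4.6, pandas 2.3.3, scipy 1.17.1, R 4.3.3, edgeR 4.0.16 and DESeq2 1.42.0, the last pair for scaling factors only. Of the list of other endothelial transcription factors, 1 gene is counted and not reported here.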

Additional observations from a re-analysis of the deposited data

How the results depend on the processing

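Over 16 alternatives, 116 of 128 counts of members stayed within 1.5 times, and 0 called differences turned sign; 612 of 1280 single differences moved by more than counting error. Endothelial over mural: 4 became 2 (Fli1, Sox18) with DESeq2 size factors and with a pseudocount of 20 CPM, and 2 to 4 over left-out plates (2 without s169s; Sox7 also lost without s480s, Sox17 without s483s). vEC over capilEC: 0 to 1 over left-out plates (Ets1 without s169s). CP-EC over capilEC: 1 to 2 (Foxf2 lost without s483s). PC over smooth muscle: 0 to 3 over left-out plates (0 without s169s, 3 without s482s), 2 without cells with markers of another class and 2 without cells over the endothelial limit. FB over mural: 3 to 7 over left-out plates (3 without s482s), 2 after thinning and 3 without cells over the endothelial limit, where Foxc1 was also lost. Causes were not tested. Without a minimum share, Erg joined the calls in endothelial over mural and MG over endothelial. The median of all genes shifted by -0.18 (endothelial over mural), 0.27 (CP-EC over capilEC), 0.19 (FB over mural) and 0.33 (MG over endothelial) with DESeq2 factors, and by -0.17, 0.16, -0.11, -0.10 and 0.27 with TMM in vEC over capilEC, aEC over vEC, CP-EC over capilEC, PC over smooth muscle and MG over endothelial. Leaving out cells moved that median further: CP-EC over capilEC by -0.79 without s483s and -1.02 without each gene's largest cell, FB over mural by -0.48 without cells with markers of another class, endothelial over mural by 0.38 without each gene's largest cell. No paired analysis was possible because each label is 1 sample with no replicate number; within-plate differences are given as ranges without a test. FB held 9 cells and CP-EC 17.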
